A study of Saccharomyces cerevisiae with 4 samples.

Results

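The transcripts of 9 yeast genes that make, reduce, use and break down glutathione were compared between 2 strains of Saccharomyces cerevisiae. The genes were chosen by name: GSH1 and GSH2 for synthesis, GLR1 for reduction, the transferases GTT1, GTT2 and ECM4, the glutaredoxins GRX1 and GRX2, and ECM38 for breakdown. Each of the 9 was read by 1 probe set, a group of short probes, out of 5449 S. cerevisiae genes with a probe set on the array, and all 9 lay above background on all 4 arrays. Messenger RNA was measured on Affymetrix Yeast Genome 2.0 arrays of 1 colour, 2 for the strain X2180 and 2 for the strain NBRC1950. X2180 is a laboratory strain of the S288C lineage and NBRC1950 comes from a Japanese culture collection. Both strains were grown with shaking in YPD, a rich glucose medium, and neither group is labelled with a treatment, a genetic change or a growth phase, so that strain and culture state at harvest cannot be told apart. The title of the series concerns ergosterol and tolerance of vanillin, an aromatic aldehyde, and the arrays compare the strains without vanillin.

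Glutathione is a small thiol made of glutamate, cysteine and glycine that yeast cells keep at high concentration as a redox buffer. Gsh1 joins the first pair of amino acids, which is the step that limits the rate, and Gsh2 adds glycine. Oxidised glutathione is reduced again by Glr1 with NADPH. Transferases attach glutathione to reactive compounds, glutaredoxins use it to reduce disulfides, and the vacuolar gamma-glutamyltranspeptidase encoded by ECM38 starts its breakdown.

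Replicate arrays lay near each other. Before scaling, the median signal ranged from 894 to 1171 over the 4 arrays, and after it the SD of the log2 difference between the arrays of a strain was 0.20 for X2180 and 0.19 for NBRC1950 over all genes tested. Ribosomal RNA, read by 17 probe sets, was lower in NBRC1950 on each of them, with a mean log2 difference of -1.10. The log2 ratio of the signal near the end to that near the start of the SRB4 transcript, a sign of RNA quality, reached 2.05 and 2.18 for the X2180 arrays and 2.66 and 2.83 for the NBRC1950 arrays, while that of ACT1 lay between 0.20 and 0.33 on all arrays. For TDH1 it went the other way, with 0.68 and 0.73 in X2180 and 0.42 and 0.23 in NBRC1950, and for SPT15 (1.08 to 1.18) and WBP1 (0.81 to 0.95) the strains overlapped. RIP1 gave 0.51 and 0.30 in X2180 and 0.29 and 0.25 in NBRC1950, and EAF5 ranged from 0.48 to 0.92 with overlap. The part of these values in the differences below was not tested.

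Of the 9 glutathione genes, GTT1 and GSH2 were lower in NBRC1950, ECM38 was higher, and the other 6 did not pass the test. A gene passed at an adjusted p under 0.05 in limma, a linear model fitted over all genes, with Benjamini-Hochberg adjustment. By the same rule 47.2% of the 5316 genes tested were called, 20.4% as higher and 26.8% as lower. The 3 of 9 glutathione genes called are a share below that of all genes here, but the order turned under other settings: 5 of 9 against 46.7% with quantile normalization, and 3 of 9 against 9.95% in the methods' t-test with adjustment. The median log2 difference, NBRC1950 minus X2180 throughout, was -0.17 over the 9 genes and -0.05 over all genes tested, and the range of the 9 ran from -1.08 to 0.69. The median of the 9 was -0.07 without NBRC1950 replicate 1 and -0.26 without NBRC1950 replicate 2, and it turned to 0.03 with no further scaling and 0.37 with scaling by every probe set on the array, where the median of all genes was 0.16 and 0.50. The signals of the strains did not overlap for 7 of the 9 genes, against 75.7% of all genes tested. A difference of at least 2-fold that also passed the test was seen for GTT1 alone among the 9, and for 7.39% of all genes tested.

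**Figure D1:**
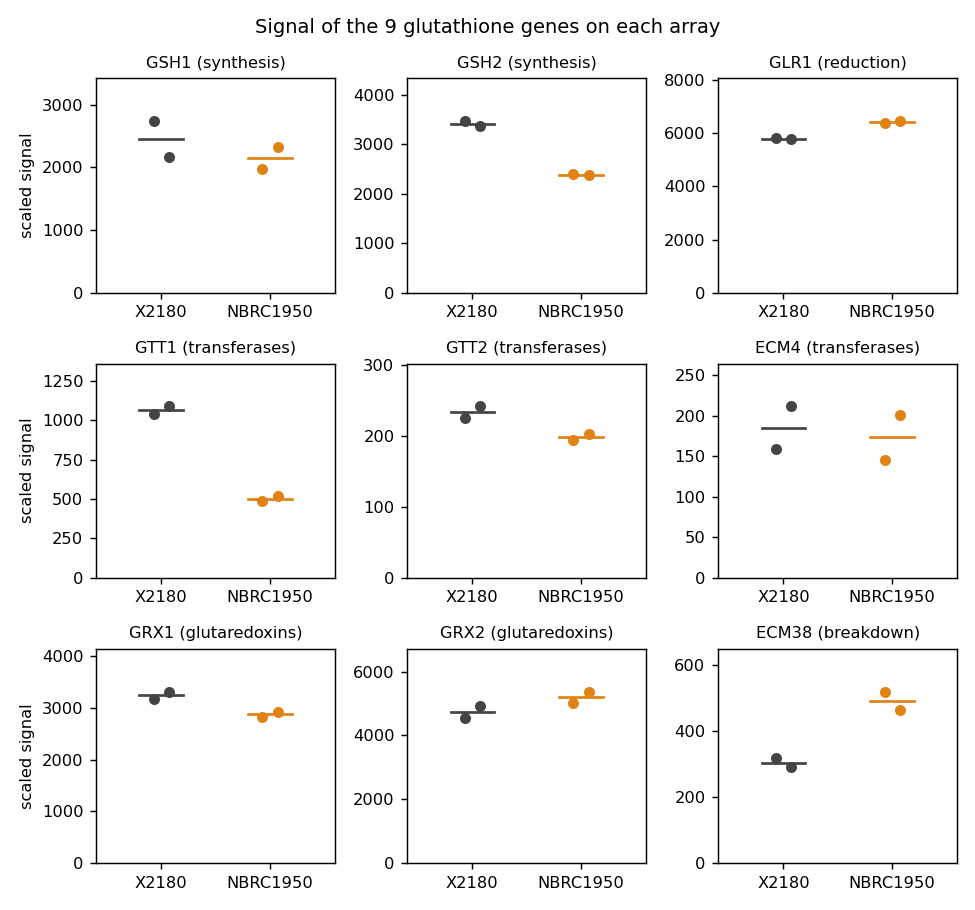
Scaled signal (linear scale from 0) of each of the 9 genes on the 4 arrays, with points for arrays and a line for the mean of the strain. The NBRC1950 points of GTT1 and GSH2 lie well below those of X2180 and the points of ECM38 well above, while those of GSH1 and ECM4 overlap. Levels are not comparable between panels.

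The genes of the synthesis steps differed from each other in how far they were separated. GSH2, the glutathione synthetase (YOL049W), had scaled signals of 3467 and 3368 in X2180 and of 2398 and 2382 in NBRC1950. Both NBRC1950 arrays lay below both X2180 arrays, and the arrays of each strain lay close together. The means were 3418 ± 70.1 and 2390 ± 11.5 (SD, n = 2 arrays in each strain), a log2 difference of -0.52 ± 0.06 (SE; limma adjusted p = 0.000496), or a 1.43-fold higher signal in X2180.

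GSH1, the gamma-glutamylcysteine synthetase (YJL101C), gave signals of 2733 and 2167 in X2180 and 1965 and 2318 in NBRC1950. The strains overlapped, and the arrays of X2180 differed more from each other than the means of the strains did. Its log2 difference was -0.19 with a 95% interval from -0.48 to 0.10 (limma adjusted p = 0.241). The value rested on single arrays: it was -0.02 without X2180 replicate 1 and -0.36 without X2180 replicate 2, and it was -0.07 without NBRC1950 replicate 1 and -0.31 without NBRC1950 replicate 2. The log2 ratio of GSH1 to GSH2 within an array, which no common factor per array can move, was -0.34 and -0.64 in X2180 and -0.29 and -0.04 in NBRC1950. The ratio was higher in NBRC1950 by 0.33 on average without overlap, by a narrow margin. This ratio, and those given below for other pairs, are described without a test, since an exact two-sided permutation test of 2 arrays against 2 cannot go below p = 0.333. The level of such a ratio also depends on the probes, so only its change between strains is read.

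GLR1, the glutathione reductase (YPL091W), had signals of 5815 and 5789 in X2180 and 6372 and 6455 in NBRC1950. The NBRC1950 arrays were both the brighter ones. The difference was small, 0.14 on the log2 scale with an interval from -0.0005 to 0.29, and did not pass (limma adjusted p = 0.0927).

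The glutaredoxins leaned in opposite directions, and neither passed the test. GRX1 (YCL035C), which encodes a dithiol glutaredoxin, had signals of 3171 and 3320 in X2180 and 2831 and 2921 in NBRC1950, a difference of -0.17 with an interval from -0.33 to -0.02, which is not adjusted for the number of genes (limma adjusted p = 0.0596). GRX2 (YDR513W), whose product accounts for most of the glutaredoxin activity of the cell, had signals of 4539 and 4915 in X2180 and 5017 and 5374 in NBRC1950, a difference of 0.14 with an interval from -0.03 to 0.31 (limma adjusted p = 0.162). For both genes the strains did not overlap, with NBRC1950 below X2180 for GRX1 and above it for GRX2. The log2 ratio of GRX2 to GRX1 within an array was 0.52 and 0.57 in X2180 and 0.83 and 0.88 in NBRC1950, higher by 0.31 in NBRC1950. The call of GRX1 lay near the threshold and passed as lower without X2180 replicate 1 (limma adjusted p = 0.0461).

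The transferases held the largest difference among the 9 genes. GTT1 (YIR038C), a glutathione transferase of the endoplasmic reticulum, had signals of 1038 and 1089 in X2180 and 487 and 521 in NBRC1950. The strains stood far apart in relation to the distance between arrays of one strain. Means of 1063 ± 36.0 and 504 ± 24.1 (SD, n = 2 arrays in each strain) gave a log2 difference of -1.08 ± 0.08 (SE; limma adjusted p = 5.56e-05), a 2.11-fold higher signal in X2180. Ranked by the size of the difference, GTT1 was 354th of the 5316 genes tested.

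GTT2 (YLL060C), a second glutathione transferase, had signals of 225 and 241 in X2180 and 194 and 202 in NBRC1950. The arrays did not overlap, but the difference of -0.23, with an interval from -0.51 to 0.04, did not pass (limma adjusted p = 0.138). ECM4 (YKR076W), an omega-class transferase also named GTO2, had signals of 159 and 211 in X2180 and 145 and 201 in NBRC1950. Replicates 1 and 2 of either strain were further from each other, by 0.41 and 0.47 on the log2 scale, than the strains were (-0.10, with an interval from -0.57 to 0.37 and a limma adjusted p of 0.697). Replicate 2 of ECM4 was the brighter in both strains, and NBRC1950 lay below X2180 at each replicate number. Leaving out 1 array unbalances the replicate numbers, and the difference was then 0.10 without X2180 replicate 2 and 0.13 without NBRC1950 replicate 1. Within an array, the log2 ratio of GTT1 to GTT2 was 2.20 and 2.17 in X2180 and 1.32 and 1.36 in NBRC1950, a difference of -0.84, so that the signals of these transferases changed unequally.

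ECM38 (YLR299W), the gamma-glutamyltranspeptidase, was the only one of the 9 genes called higher in NBRC1950. Its signals were 319 and 290 in X2180 and 520 and 463 in NBRC1950, with no overlap. The means were 304 ± 20.7 and 491 ± 40.7 (SD, n = 2 arrays in each strain), a log2 difference of 0.69 ± 0.11 (SE; limma adjusted p = 0.00173), or 1.61-fold higher in NBRC1950.

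**Figure D2:**
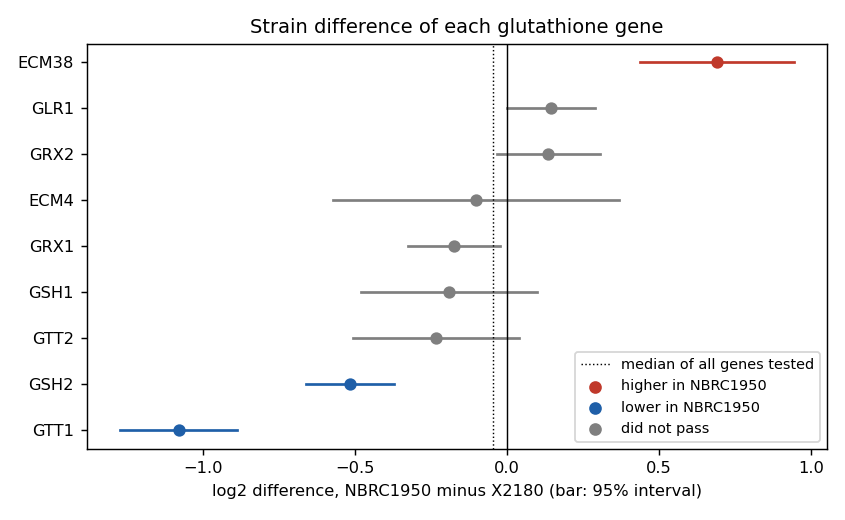
Log2 difference, NBRC1950 minus X2180, of each of the 9 genes (points) with its 95% interval from limma (bars). The intervals of GTT1 and GSH2 lie below 0 and that of ECM38 above, and those of the grey genes include 0 except for GRX1, whose adjusted p did not pass. The dotted line marks the median of all genes tested, -0.05.

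Set against all genes tested, the sizes of these differences were spread widely. GTT1 lay at percentile 93.4 of the absolute log2 difference, ECM38 at 85.6 and GSH2 at 77.3. The other 6 lay between percentile 23.3 (ECM4) and 48.1 (GTT2), below the median size of 0.25 over all genes.

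The genes whose 4 log2 values were most like those of GTT1, by Euclidean distance after subtracting each gene's X2180 mean, were SSU1, YCP4 and PUG1. SSU1, the sulfite pump of the plasma membrane, differed by -1.07 at a distance of 0.03. YCP4, a flavodoxin-like protein, differed by -1.04 at a distance of 0.06, and PUG1, a transporter of protoporphyrin and heme, by -1.13 at a distance of 0.07. With 4 arrays from 2 strains, such likeness says little more than that the genes have a strain difference of the same size.

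A wider list of 42 genes of glutathione supply, use and control was read in the same fit. Of the 41 tested, 7 were higher, 17 were lower and 17 did not pass, a share called of 24 in 41 beside 47.2% of all genes, with a median of -0.14 against -0.05. GEX2 was not matched to a probe set. The genes of cysteine supply were all called: STR2 (-0.43), CYS4 (-0.40), the cystathionine beta-synthase, and STR3 (-0.90) were lower, and CYS3, the cystathionine gamma-lyase, was higher (0.22, limma adjusted p = 0.0269). The call of CYS3 was lost without NBRC1950 replicate 1 (0.128) or NBRC1950 replicate 2 (0.231).

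The peroxidase genes GPX2 and HYR1 were lower in NBRC1950. GPX2 gave signals of 4471 and 5568 in X2180 against 3218 and 3291 in NBRC1950 (-0.62, limma adjusted p = 0.00225). HYR1, whose product senses peroxide and passes the signal to the activator Yap1, gave 3325 and 2919 against 2398 and 2303 (-0.41, limma adjusted p = 0.00486). GPX1 was at 0.37 and did not pass (limma adjusted p = 0.0533), but it passed as higher without X2180 replicate 2 (0.0358), with quantile normalization (0.023), without the intensity trend (0.038) and with scaling by every probe set on the array (1.41e-07).

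Of 6 other glutaredoxins, 3 were called, near the 47.2% of all genes called. GRX8 was higher (0.57, limma adjusted p = 0.000829) and GRX3 (-0.23) and GRX7 (-0.25) were lower, while GRX5 (-0.15) did not pass. The log2 difference of GRX5 was -0.20 without X2180 replicate 1. With scaling by every probe set on the array it was 0.40 and passed as higher (limma adjusted p = 0.000593), as did 3968 of the 5316 genes tested. The call of GRX3 was lost without NBRC1950 replicate 1 (0.143) or replicate 2 (0.0959), and that of GRX7 without X2180 replicate 2 (0.207) or NBRC1950 replicate 1 (0.262). Among 4 other transferases and relatives, 2 were called, also near the share of all genes. GTT3, a protein with a possible role in glutathione metabolism, was higher (0.78, limma adjusted p = 8.93e-05). Its signals were 1086 and 1064 in X2180 and 1855 and 1839 in NBRC1950. GTO1 was lower (-0.35), but did not pass when X2180 replicate 2 (0.132), or else NBRC1950 replicate 1 (0.0559) or 2 (0.204), was left out. URE2, a regulator of nitrogen use with a transferase fold, was at 0.06, and GTO3, at -0.32, was above background on 1 array of each strain; neither passed.

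Breakdown outside the vacuole runs through the Dug peptidases and Gcg1. DUG1 was lower (-0.27, limma adjusted p = 0.0212), a call lost without NBRC1950 replicate 1 (0.135) or replicate 2 (0.137). DUG3 (0.18), DUG2 (0.17) and GCG1 (-0.09) did not pass. Here 1 of the 5 breakdown genes measured, ECM38, was called higher, near the 20.4% of all genes called higher. DUG3 passed as higher with quantile normalization (limma adjusted p = 0.0301), with no filter (0.04999) and with a block for replicate number (0.0454). With scaling by every probe set on the array, the 4 genes other than ECM38 were all called higher, beside 80.7% of all genes called. In the methods' t-test with adjustment ECM38 did not pass (0.0877) and GCG1 passed as lower (0.0473).

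Genes of transport went both ways. VMR1, a vacuolar transporter of the same family as YCF1, was higher, with signals of 202 and 216 in X2180 and 543 and 519 in NBRC1950 (1.35, limma adjusted p = 5.17e-05). YCF1, the vacuolar pump of glutathione conjugates, was lower, with 2699 and 2901 against 1924 and 1436 (-0.75, limma adjusted p = 0.00259). GEX1, a glutathione exchanger read by a probe set shared with similar sequences, was lower (-1.79), with signals of 63.5 and 59.7 in X2180 and of 15.8 and 20.1 in NBRC1950, the latter close to the limits of background on those arrays, 14.9 and 16.6. BPT1 was lower by -0.32, a call lost without X2180 replicate 1 (0.0749) or NBRC1950 replicate 1 (0.0779).

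The glyoxalase pathway uses glutathione to remove methylglyoxal, and Sfa1 and the esterase YJL068C use it to remove formaldehyde. GLO2, the cytosolic glyoxalase II, was lower, with signals of 2709 and 2619 in X2180 and 1219 and 1319 in NBRC1950 (-1.07, limma adjusted p = 2.7e-05). GLO4, the mitochondrial form, differed by -0.85 and YJL068C by -0.75, both called lower. SFA1 was higher by 0.23, a call lost without NBRC1950 replicate 1 (0.103) or replicate 2 (0.119). GLO1, the first enzyme of the pathway, was at -0.06 with an interval from -0.25 to 0.12 and did not pass; it was not among the genes the naming rule picked and is given because the other glyoxalase genes were.

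Regulators known to act on glutathione genes were measured as transcripts only. YAP1 (-0.18), which encodes the activator of GSH1 and other oxidative stress genes, did not pass, nor did SKN7 (-0.03), its partner, or MET4 (-0.13), the activator of sulfur genes. These 3 were added to the 4 that the naming rule picked. CBF1, a DNA-binding partner of Met4, was lower, with signals of 1102 and 1060 in X2180 and 419 and 438 in NBRC1950 (-1.33, limma adjusted p = 1.79e-05). MET32, a further cofactor of Met4, was higher (0.93, limma adjusted p = 0.0015). MSN2 was higher (0.35) and MSN4 lower (-0.51), both activators of general stress genes.

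Of 11 other genes known as targets of Yap1, 8 were lower, 1 was higher and 2 did not pass, with a median of -0.64, beside 26.8% of all genes called lower. One of the 8, OYE3, given outside the naming rule, was dim, with signals of 54.3 and 28.2 in X2180 and 18.2 and 14.9 in NBRC1950. Only 1 of its NBRC1950 arrays was above background. With the filter at the 95th background percentile it was not tested, and 7 were called lower. With quantile normalization 6 were called lower and 1 higher, beside 1194 lower and 1292 higher of the 5322 genes tested there. GRE2, a reductase of aldehydes and ketones, gave signals of 2015 and 1573 in X2180 and 601 and 662 in NBRC1950 (-1.50, limma adjusted p = 7.27e-05). ATR1, a multidrug exporter, differed by -1.02, TRR1, the thioredoxin reductase, by -0.64 and CCP1, the cytochrome c peroxidase, by -0.55. FLR1, outside the naming rule and given as the only higher one, differed by 0.45. With scaling by all probe sets on the array, 4 of the 11 were called lower and 3 higher, with a median of -0.10. Of all 5316 genes, 321 were lower and 3968 higher there, with a median of 0.50. No further scaling gave 4 lower and 1 higher, with a median of -0.43. For all genes that setting gave 383 lower and 925 higher, with a median of 0.16. In the methods' t-test with adjustment 0 of the 11 were called, beside 9.95% of all genes.

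Of 12 general stress genes known as targets of Msn2 and Msn4, 7 were higher, 0 were lower in limma and 5 did not pass, with a median of 0.59, beside 20.4% of all genes called higher. One of the 7, DDR2, was below background on both X2180 arrays and passed the filter on dim probe sets only through NBRC1950. With the filter at the 95th background percentile it was not tested, and 6 were called higher. In the methods' t-test at an unadjusted p under 0.05 the counts were 5 higher and 0 lower, beside 885 of all 5316 genes higher. With adjustment they were 1 higher and 0 lower, beside 218 of all genes higher. SSA4, outside the naming rule, was at -0.17, and at -0.32 without X2180 replicate 2. HSP26, a small heat shock protein, gave signals of 79.5 and 102 in X2180 and 649 and 652 in NBRC1950 (2.85, limma adjusted p = 7.36e-06). PGM2 differed by 0.88, SPI1 by 0.68 and YGP1 by 0.56. The calls of HSP26, PGM2, SPI1, YGP1, TFS1 and GPH1 held under each of 4 scalings; TFS1 and GPH1 lie outside the naming rule. These genes are also known to move with growth phase, and the part of growth phase in any difference given here was not tested.

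**Figure D3:**
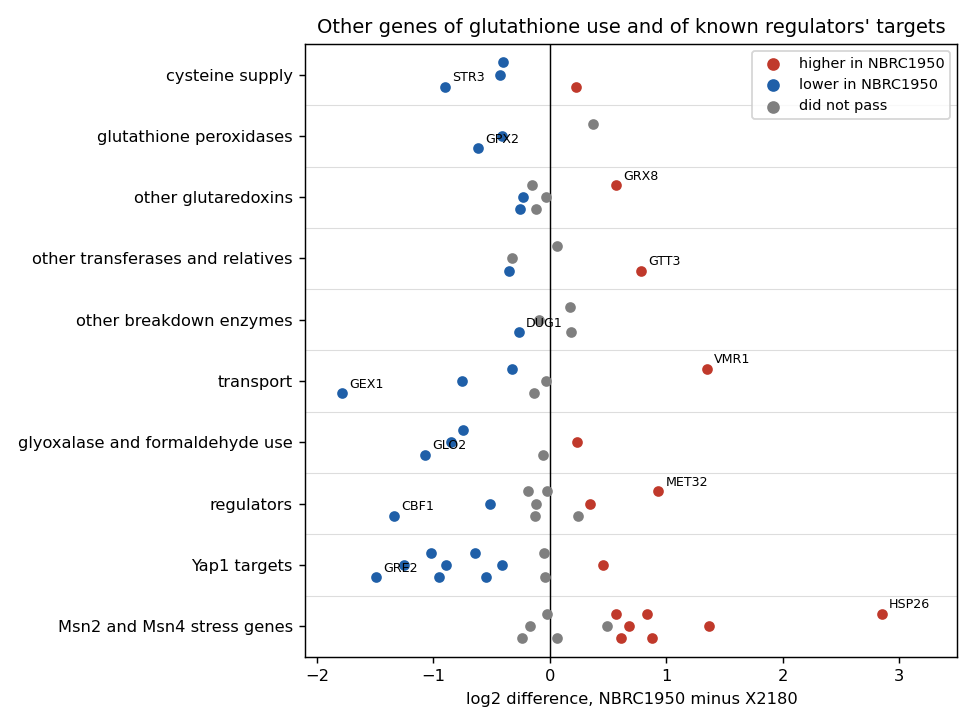
Log2 difference, NBRC1950 minus X2180, of the other genes of glutathione supply, use and control and of the targets of Yap1 and of Msn2 and Msn4, with 1 point per gene, offset vertically within its group for legibility. Most points of the Yap1 targets lie left of 0 and most of the Msn2 and Msn4 stress genes lie right of it.

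The direction of small differences depended on how the arrays were scaled to each other. The values above use a common median over S. cerevisiae probe sets, where the median gene differed by -0.05. The median gene stood at 0.02 with quantile normalization, at 0.16 with no further scaling and at 0.50 with scaling by the median over every probe set on the array, the last called scaling to all probe sets here. The median used in scaling to all probe sets takes in the 5217 of 10928 probe sets that measured background, so it does not rest on yeast transcripts alone. GTT1 was called lower under all 4, at -1.08, -1.09, -0.87 and -0.53, and ECM38 higher, at 0.69, 0.71, 0.90 and 1.24. GSH2 stayed lower and called with quantile normalization (-0.44), did not pass with no further scaling (-0.31, limma adjusted p = 0.292) and was at 0.03 with scaling to all probe sets (limma adjusted p = 0.804), where it was still -0.47 below the median gene. GLR1 and GRX2 passed as higher with quantile normalization, at 0.26 (limma adjusted p = 0.0058) and 0.25 (0.0146). Scaled to all probe sets, 6 of the 9 genes were called higher and 1 lower, beside 80.7% of all genes called, and with no further scaling 1 was called in each direction. In the wider list, GRX8, GTT3, VMR1, MET32 and MSN2 were called higher and GEX1, GLO2 and CBF1 lower under all 4 scalings. Among the Yap1 targets, ATR1, GRE2 and TRX2 were called lower under all 4, and FLR1 was called higher under all 4. TRX2 and FLR1 are named outside the rule. The calls of the other 16 genes of the wider list, those of cysteine supply and the peroxidases among them, were lost or turned under at least 1 scaling, and scaling to all probe sets gave 26 higher and 3 lower in that list.

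**Figure D4:**
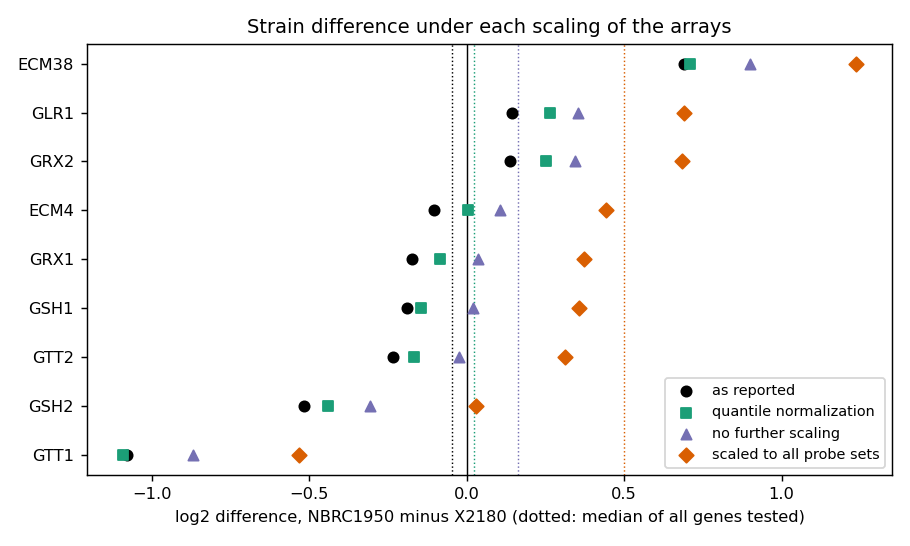
Log2 difference, NBRC1950 minus X2180, of the 9 genes under 4 scalings of the arrays (symbols), with dotted lines at the median of all genes tested under each scaling. GTT1 stays below 0 and ECM38, GLR1 and GRX2 above 0 under all 4, while the other 5 genes change sides.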

How the data were processed

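The deposited file holds linear intensity values, 1 for each probe set on each array. The submitters' processing notes name GCOS only, without a version, and do not state any scaling done in it. Per the labels' design text, the authors then normalized each array to its 50th percentile and each gene to X2180 in GeneSpring, which the deposited values do not show. Of 10928 probe sets, 5498 named 1 S. cerevisiae gene of the R64 gene table. The 5217 that named none and were no controls measured background.

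Intensities were scaled per array to a median of 973.6 over S. cerevisiae probe sets, floored at 4.567, the median background, and converted to log2. Probe sets with a mean above 16.35, the 90th background percentile, were tested: 5358, for 5316 genes. The strain difference was fitted in limma 3.58.1 under R 4.3.3 (eBayes with an intensity trend, no covariates, Benjamini-Hochberg adjustment over all tested probe sets). The brightest probe set stood for a gene. The fit was tested on simulated data. Each gene had 2 residual degrees of freedom, and 5.415 more came from all genes. The labels call the duplicates independent but do not say what they shared, so p-values measure the spread between these arrays, and their number limits the precision.

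The members, lists and tests were chosen with earlier results of these data known. Named are all 9 members, up to 4 genes with the smallest adjusted p in each other group, the 3 genes most like GTT1, the chromosomal neighbours, chosen after the data were seen, and further genes said to be added or outside the rule. Probes mismatched to NBRC1950 were not masked, so sequence and transcript level cannot be told apart. Sequences and coordinates were not used here, and the planned motif search was not run. Alternatives were scaling, floor, filter, variance model, the methods' t-test, pairing and leaving out each array.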

Additional observations from a re-analysis of the deposited data

How the results depend on the processing

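Of the 9 glutathione genes, GTT1 kept its call under all 16 alternatives, ECM38 under 15 and GSH2 under 14. Those of the 16 that changed the floor, the filter or the choice of probe set could not move the differences of these genes. Scaled to all probe sets, 7 of the 9 were called beside 80.7% of all genes, and GSH1 (0.356), GSH2 (0.0302), GTT2 (0.312), ECM4 (0.443) and GRX1 (0.372) turned positive; 4289 of all genes were called there, 92.5% of them higher against 43.2% in the values reported. With no further scaling 1308 of all genes and 12 of the wider list were called, with 70.7% of all calls higher, and GSH1 (0.0190), ECM4 (0.106) and GRX1 (0.0345) turned positive, while GSH2 did not pass (-0.31). With quantile normalization 5 of the 9 were called beside 46.7% of all genes, 52.0% of all calls were higher, and ECM4 stood at 0.00402. The scalings to other medians shift every gene by the same amount by construction, and for quantile normalization the cause was not tested. Without single arrays ECM4 ranged from -0.34 to 0.13, with 0.10 without X2180 replicate 2 and 0.13 without NBRC1950 replicate 1, and the 9 genes held 3 or 4 calls.

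The methods' t-test, adjusted, called 529 of all genes, 9 of the wider list, 3 of the 9 (GLR1 in place of ECM38) and 1 of the 23 regulator targets, with ECM38 at an adjusted p of 0.0877. With 2 residual degrees of freedom it has less power by construction. At an unadjusted p under 0.05 it called 2071 of all genes and 5 of the 9 (beside 39.0% of all genes), adding GLR1 and GRX1. Same-numbered arrays were not taken as pairs, since the same number is not stated to mark a shared day. Over all genes tested they did not deviate together (correlation of 0.06), which does not describe single genes. From replicate 1 to 2, ECM4 rose in both strains (by 0.41 in X2180 and 0.47 in NBRC1950), while GSH1 moved in opposite directions (-0.33 and 0.24). With a replicate block, 2671 of all genes were called against 2509, and of the 9 only GRX1 changed its call (limma adjusted p = 0.0471). The crossed replicate block, chosen after seeing the data, called 2359 and changed no call of the 9. The floor, the filters, the intensity trend and the choice of probe set changed no call of the 9. Each of the 9 had 1 probe set and signals well above the floor and the filter limits. The floor, the filters and the choice of probe set therefore could not move their differences, only their p-values through the other genes.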

Other observations

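The chromosomal neighbours of the glutathione genes were read in the order of the R64 gene table, without coordinates. GTT1 is the fourth protein-coding gene from the right end of chromosome IX in that table. Each of its measured neighbours was called lower in NBRC1950, beside 26.8% of all genes tested. HYR1, the peroxidase gene next to it, differed by -0.41, IRC24, a reductase gene beyond it, by -0.85 (limma adjusted p = 0.000213), and YPS6, an aspartic protease gene on the other side, by -3.83 (limma adjusted p = 1.0e-05). YPS6 had signals of 413 and 403 in X2180 and 23.7 and 34.8 in NBRC1950. The latter were not far above the background limits of those arrays, 14.9 and 16.6, so the size of its difference is uncertain. The log2 ratio of GTT1 to HYR1 within an array was -1.68 and -1.42 in X2180 and -2.30 and -2.15 in NBRC1950, so that the pair did not change equally. Whether sequence at this chromosome end differs between the strains was not tested.

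The other calls had mixed surroundings. Beside GSH2, GAL11 was higher (0.33) and SPE2 (-0.21) and RRT8 (-1.68) were lower, and LDS2 (-0.79) did not pass. Beside ECM38, EXG1 (-0.43) and HRI1 (-0.46) were lower on one side, whereas on the other YHC1 was at 0.16 and did not pass and YLR297W, beyond it, was higher by 1.41 (limma adjusted p = 2.2e-05). GTT2 also lies near a chromosome end, and its neighbours MMP1 (0.92) and MHT1 (0.59), which serve the use of S-methylmethionine, were higher in NBRC1950 while GTT2 itself and JLP1 (-0.75), on its other side, did not pass. SSU1, the gene most like GTT1 over the arrays, is the neighbour of GLR1.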
